A study of Bos taurus with 90 samples.

Results

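ALAS1 (ENSBTAG00000004118) encodes 5-aminolevulinate synthase 1, the mitochondrial enzyme that joins glycine and succinyl-CoA in the first and rate-limiting step of heme synthesis. It is 1 of 24616 genes counted in 90 liver libraries, and its identifier was taken from the gene names in the study's supplementary list. The gene was selected on a measured value, the difference between low and high residual feed intake (RFI) in Holstein-Friesian steers on grass. That contrast is therefore given as a description without a test, and the tests below concern diet, breed and the RFI contrasts that the selection did not use.

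Liver makes heme mainly for its cytochrome P450 enzymes, and ALAS1 is the form of the enzyme found in all tissues, whereas red blood cell precursors use ALAS2. Transcription of ALAS1 is known to be repressed by heme, induced in fasting through the coactivator PGC-1alpha, induced by drugs that activate nuclear receptors, and linked to the body clock. The messenger and the protein are both short-lived, so the transcript level can move quickly.

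The libraries came from liver biopsies of Charolais (CH) and Holstein-Friesian (HF) steers taken when each of 3 feeding phases ended, always in the same order. In the first and the last phase, H1 and H2, the same high-concentrate diet of rolled barley, soya bean meal and molasses was fed without limit with a little grass silage, and in the middle phase, ZG, freshly cut grass (zero-grazed) was fed without limit. RFI is the feed eaten beyond or below what body weight and gain predict, so low RFI steers are the more feed-efficient, and steers were ranked within breed anew in each phase. The CH groups held 9 low and 11 high RFI steers for H1, 3 and 3 for ZG, and 9 and 8 for H2, and the HF groups held 7 low and 9 high for H1, 10 and 8 for ZG, and 5 and 8 for H2. Diet, age, season and growing or finishing stage changed together between phases and cannot be told apart. Apart from breed, no genotype or drug treatment separated the groups. The paper gives a higher mean age for HF than for CH steers when H1 began.

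Reads counted on genes ranged from 9097695 to 63621304 per library with a median of 18858293, and ALAS1 received between 820 and 31138 of them, so counting error was small beside the spread between steers. Levels are given in CPM, counts scaled to a common library size, after TMM normalisation, which rescales libraries so that most genes keep a common level. The normalisation factors had medians of 1.11 for H1, 0.958 for ZG and 0.944 for H2, so the scaling itself moved with diet. Without TMM, the median log2 fold change of all genes in the fits lay between -0.29 and 0.21. Within the 12 groups, the log2 level of ALAS1 had a Pearson correlation of -0.0049 with log2 library size over the 90 libraries. The hepatocyte, erythroid, leukocyte, Kupffer, bile duct, stellate and muscle marker genes had no name in the list used, so the liver label could not be checked here. In whole biopsies, fewer cells of a type and less RNA per cell cannot be told apart.

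ALAS1 was expressed in every library, from 66.9 to 944 CPM. It was lowest in H1, where the mean was 174 ± 53.2 CPM (SD, n = 36), higher in H2 at 271 ± 83.7 CPM (n = 30), and highest in ZG at 418 ± 180 CPM (n = 24). In CH the means were 179.9 ± 52.6 CPM for H1 (n = 20), 398 ± 133 CPM for ZG (n = 6) and 252 ± 74.3 CPM for H2 (n = 17). In HF they were 166 ± 54.7 CPM for H1 (n = 16), 425 ± 196 CPM for ZG (n = 18) and 297 ± 91.2 CPM for H2 (n = 13). The diets therefore stood in the same order in both breeds.

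For CH on H1, the 9 low RFI steers had levels between 66.9 and 286 CPM with a median of 195 CPM, and the 11 high RFI steers between 117 and 251 CPM with a median of 165 CPM. For HF on H1, the 7 low RFI steers ranged from 97.8 to 261 CPM with a median of 118 CPM, and the 9 high RFI steers from 98.7 to 237 CPM with a median of 178 CPM. All 4 of these groups overlapped. The CH steer with 66.9 CPM was the lowest of all 90 libraries.

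On grass, the 3 low RFI CH steers had 268, 406 and 457 CPM, and the 3 high RFI CH steers had 226, 441 and 588 CPM. The 10 low RFI HF steers on grass ranged from 172 to 456 CPM with a median of 272 CPM, and the 8 high RFI HF steers from 334 to 944 CPM with a median of 563 CPM. The highest library of all, at 944 CPM, was a high RFI HF steer on grass.

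In the second concentrate phase, the 9 low RFI CH steers ranged from 161 to 352 CPM with a median of 197 CPM, and the 8 high RFI CH steers from 185 to 395 CPM with a median of 288 CPM. The 5 low RFI HF steers had 159, 178, 291, 320 and 438 CPM, and the 8 high RFI HF steers ranged from 186 to 412 CPM with a median of 297 CPM. In both breeds the H2 steers overlapped with those of H1 and with those of ZG.

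**Figure D1:**
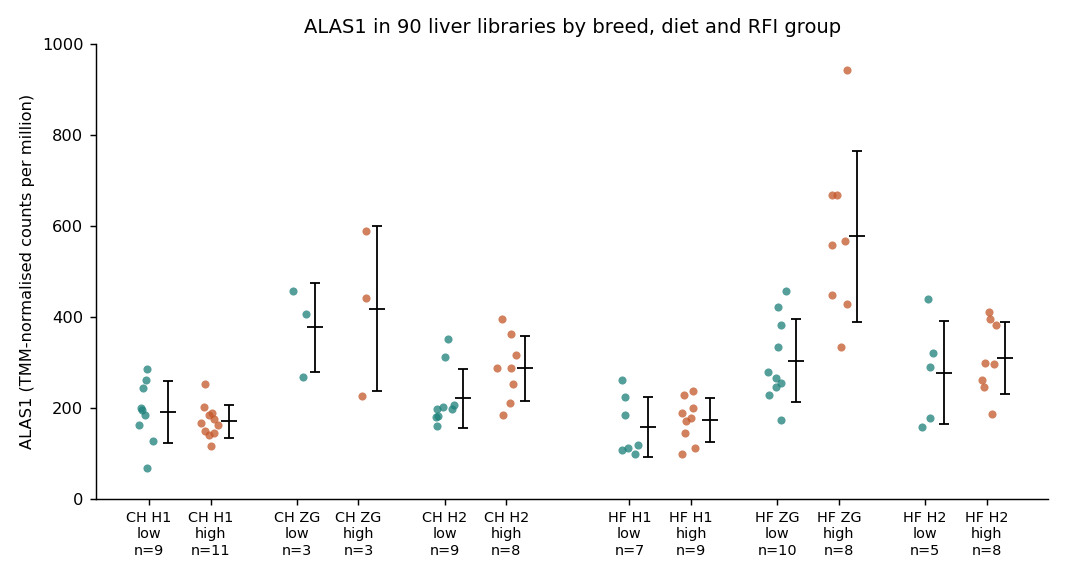
ALAS1 in CPM after TMM normalisation (linear axis from 0) for the 12 groups of breed, diet and RFI. Points are single steers, low RFI in green and high RFI in orange, and bars give the group mean and SD. The H1 groups sit between 66.9 and 286 CPM, and the high RFI HF steers on grass reach 944 CPM.

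Ordered by median, the 12 groups ran from low RFI HF on H1, through high RFI CH, high RFI HF and low RFI CH on H1, to low RFI CH on H2, low RFI HF on ZG, high RFI CH, low RFI HF and high RFI HF on H2, and then to low RFI CH, high RFI CH and high RFI HF on ZG. All 4 H1 groups were at the low end. Neighbours in this order overlapped at all 11 steps. At just 1 step, from low RFI CH on H2 to low RFI HF on ZG, did the mean log2 CPM differ by more than the larger of the neighbours' SDs (0.45 against an SD of 0.44).

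To compare diets, all 12 groups were placed in one edgeR quasi-likelihood fit of 13945 genes, low and high RFI steers were given equal weight, and p-values were adjusted by the Benjamini-Hochberg method over all genes with an adjusted p under 0.1 called. The study used the same threshold. Background shares of genes called are given beside each comparison.

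ALAS1 was higher on grass than in the first concentrate phase in both breeds. In CH the level was 2.20-fold higher, a log2 fold change of 1.14 (SE 0.20, 95% interval 0.75 to 1.53), with an edgeR adjusted p of 0.000177, where 17.8% of all genes were called. In CH, 42 of the 13945 genes had a larger log2 fold change and ALAS1 was number 10 by p. In HF it was 2.54-fold higher, a log2 fold change of 1.34 (SE 0.16, 95% interval 1.02 to 1.66), with an edgeR adjusted p of 6.97e-10, where 58% of all genes were called. In HF, 28 genes had a larger log2 fold change and ALAS1 was number 21 by p. Of the 6 CH steers on grass, 4 lay above every CH steer on H1, and of the 18 HF steers on grass, 14 lay above every HF steer on H1. In CH, low RFI steers alone gave a log2 fold change of 0.98 (SE 0.28, edgeR adjusted p = 0.0245) and high RFI steers alone 1.29 (SE 0.27, edgeR adjusted p = 0.0347). In HF these values were 0.95 (SE 0.23) and 1.74 (SE 0.22), given without a test because the split by RFI carries the difference the gene was selected on.

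ALAS1 was also higher in the second concentrate phase than in the first, although the concentrate was the same. In HF the level was 1.77-fold higher, a log2 fold change of 0.83 (SE 0.17, 95% interval 0.49 to 1.17), with an edgeR adjusted p of 7.11e-05, where 61.9% of all genes were called. In CH it was 1.39-fold higher, a log2 fold change of 0.48 (SE 0.15, 95% interval 0.18 to 0.77), with an edgeR adjusted p of 0.00438, where 66.6% of all genes were called. With such a background, a call by itself sets ALAS1 apart from few genes, and 1433 genes had a larger log2 fold change in CH and 215 in HF. Of the 13 HF steers, 9 lay above every HF steer on H1, against 7 of the 17 CH steers. The CH call was lost without TMM, at a log2 fold change of 0.22 (SE 0.15, edgeR adjusted p = 0.208), and in low RFI steers alone, at 0.20 (SE 0.21, edgeR adjusted p = 0.433).

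From grass to the second concentrate phase ALAS1 was lower in both breeds. In CH the log2 fold change was -0.66 (SE 0.21, 95% interval -1.07 to -0.25), with an edgeR adjusted p of 0.0838, where 2.82% of all genes were called. In HF it was -0.52 (SE 0.17, 95% interval -0.85 to -0.18), with an edgeR adjusted p of 0.064, where 7.24% of all genes were called. Of the 17 CH steers on H2, 9 lay below every CH steer on grass, against 1 of the 13 HF steers. Neither call was stable. The CH call was lost when any of 5 of the 6 CH grass steers was left out, with adjusted p-values up to 0.295 without steer 1816. The HF call was lost without steer 1657 (-0.44, adjusted p = 0.143), without steer 2220 (-0.45, adjusted p = 0.159), and without TMM (-0.41, adjusted p = 0.129), all by edgeR. In low RFI steers alone the HF value was -0.13 and in high RFI steers alone -0.90, again given without a test for the same reason.

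**Figure D2:**
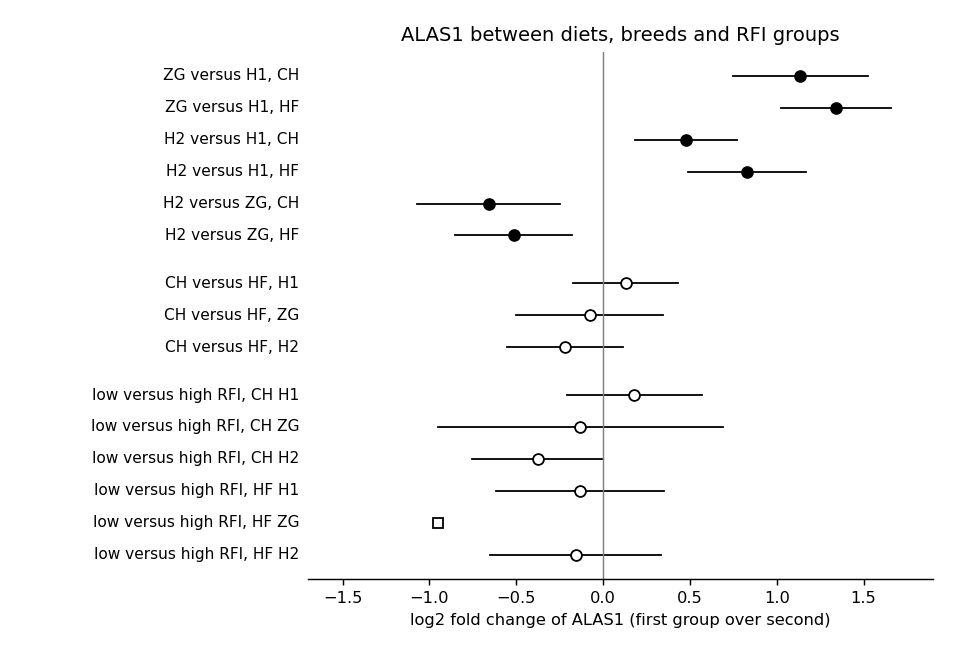
Log2 fold change of ALAS1, first group over second, for the 6 diet, 3 breed and 6 RFI comparisons. Lines are 95% intervals, filled circles passed an edgeR adjusted p of 0.1 and open circles did not, and the open square is the contrast the gene was selected on, shown without an interval. The grass versus H1 values, 1.14 in CH and 1.34 in HF, lie farthest above 0.

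Some steers were sampled in more than 1 phase, which allows the diet change to be followed within an animal. There were 14 such steers, 6 CH and 8 HF, of which 6 had changed RFI group between phases. All 6 steers with libraries from H1 and ZG were higher on grass. The CH steers went from 144 to 226 CPM (steer 307), from 184 to 588 CPM (steer 1816) and from 286 to 406 CPM (steer 1831). The HF steers went from 110 to 456 CPM (steer 2065), from 237 to 668 CPM (steer 2069) and from 111 to 255 CPM (steer 5632). The mean change was 1.26 on the log2 scale (SD 0.60, n = 6), with a two-sided exact sign-flip permutation p of 0.0312, the smallest that 6 steers allow, and 0.0586 after adjustment over the 3 phase pairs.

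Of 8 steers with libraries from H1 and H2, 7 were higher in H2. The CH steers went from 199 to 288 CPM (steer 1100), from 184 to 253 CPM (steer 1320), from 140 to 395 CPM (steer 364) and from 144 to 197 CPM (steer 307). The HF steers 2071, 2101 and 5632 went from 171 to 438 CPM, from 188 to 383 CPM and from 111 to 412 CPM, whereas steer 2220 went from 261 to 178 CPM. The mean log2 change was 0.83 (SD 0.77, n = 8), with a two-sided exact sign-flip permutation p of 0.0391, or 0.0586 adjusted.

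The 4 steers with libraries from ZG and H2 were divided. Steer 1639 fell from 448 to 186 CPM and steer 307 from 226 to 197 CPM, whereas steer 5612 went from 228 to 320 CPM and steer 5632 from 255 to 412 CPM. The mean log2 change was -0.07 (SD 0.88, n = 4), with a two-sided exact permutation p of 0.875, where 4 steers cannot go below 0.125. On grass, steers 1639 and 307 were high RFI, and steers 5612 and 5632 were low RFI. In HF that split is the one the gene was selected on. The direction of these 4 changes is therefore no independent check of the lower level in H2 than in ZG seen between groups.

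**Figure D3:**
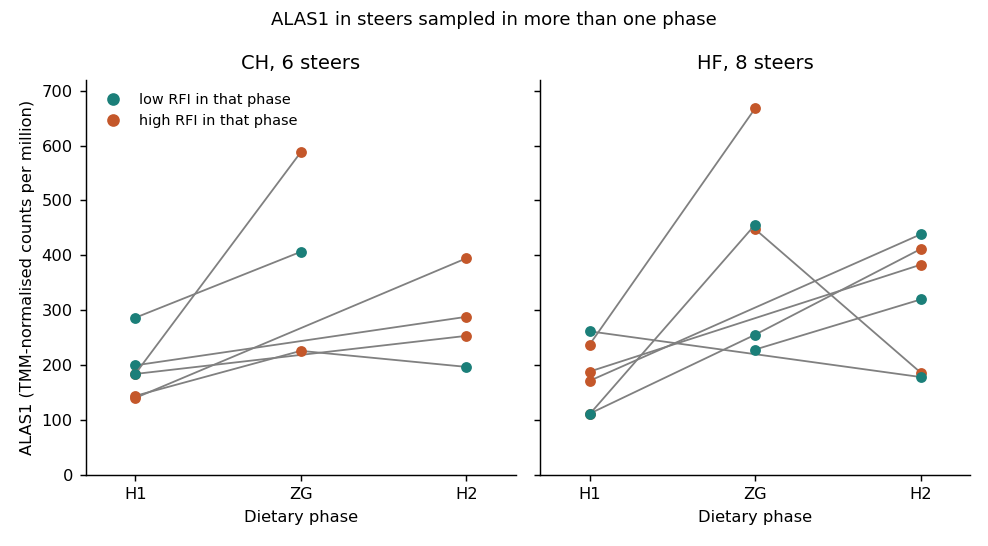
ALAS1 in CPM after TMM normalisation (linear axis from 0) in the 14 steers sampled in more than 1 phase, with a line for each steer and points coloured by RFI group in that phase. All 6 lines from H1 to ZG rise, and of the steers measured in both H1 and H2, steer 2220 alone ends lower, at 178 CPM.

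The breeds did not differ detectably in ALAS1 within any diet. The log2 fold change of CH over HF was 0.13 for H1 (SE 0.15, 95% interval -0.17 to 0.43, edgeR adjusted p = 0.956), where 2.12% of all genes were called. For ZG it was -0.08 (SE 0.21, 95% interval -0.50 to 0.35, edgeR adjusted p = 0.968), where 0.0645% of all genes were called. For H2 it was -0.22 (SE 0.17, 95% interval -0.55 to 0.11, edgeR adjusted p = 0.884), where 0.81% of all genes were called, and it moved to -0.11 without steer 2071 and to -0.35 without TMM. These intervals still allow a breed difference of up to 0.55 on the log2 scale.

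The diet changes were also compared between breeds with interaction terms. The CH change minus the HF change was -0.21 for ZG versus H1 (SE 0.26, 95% interval -0.73 to 0.32), -0.35 for H2 versus H1 (SE 0.23, 95% interval -0.80 to 0.10) and -0.14 for H2 versus ZG (SE 0.27, 95% interval -0.68 to 0.39). edgeR called 0 of 13945 genes (0%) for each of these, with 418, 330 and 761 genes at an unadjusted p under 0.05. DESeq2 called 1 of 19855, 0 of 19855 and 27 of 1611 genes that it gave an adjusted p. A difference between breeds in the response of ALAS1 to diet was therefore not detectable.

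In the contrast the gene was selected on, low against high RFI in HF on grass, the mean was 304 ± 91.1 CPM in low RFI steers (n = 10) and 577 ± 189 CPM in high RFI steers (n = 8). The log2 fold change of low over high RFI was -0.95 (SE 0.20), or 1.93-fold higher in high RFI steers. The groups overlapped: 7 of the 10 low RFI steers lay below every high RFI steer, and 5 of the 8 high RFI steers lay above every low RFI steer.

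The other RFI contrasts, which the selection did not use, gave smaller values. Since the gene was selected on the HF grass contrast, smaller values elsewhere do not show that the difference is particular to it. The breed difference in the RFI effect on grass was not tested. For CH on grass the log2 fold change of low over high RFI was -0.13 (SE 0.35, 95% interval -0.95 to 0.69), with an exact permutation p of 0.9, where 3 steers against 3 cannot go below 0.1. edgeR called 0 of 13025 genes (0%) there, with 1755 at an unadjusted p under 0.05, and DESeq2 called 158. Leaving out steer 1816 turned the value to 0.18 and leaving out steer 357 turned it to 0.05, so it has no settled sign.

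In the second concentrate phase, ALAS1 in CH had a log2 fold change of -0.38 (SE 0.18, 95% interval -0.75 to 0.0012) with an edgeR adjusted p of 0.998 and a two-sided exact permutation p of 0.0517, or 0.259 adjusted over the 5 contrasts tested. edgeR called 0 of 12417 genes (0%), with 355 at an unadjusted p under 0.05, and DESeq2 called 4. Under the other settings the CH value ran from -0.51 to -0.38 and was not called. The -0.51 came without TMM (SE 0.19, edgeR unadjusted p = 0.0142, adjusted p = 0.854). In HF the log2 fold change was -0.16 (SE 0.23, 95% interval -0.65 to 0.33, exact permutation p = 0.444). There edgeR called 0 of 12549 genes (0%), with 435 at an unadjusted p under 0.05, and DESeq2 called 5. That HF value moved to -0.01 without steer 1657 and to -0.38 without steer 2071.

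In the first concentrate phase, the log2 fold change was 0.18 in CH (SE 0.19, 95% interval -0.21 to 0.57, edgeR adjusted p = 0.740, exact permutation p = 0.705), where edgeR called 2 of 12920 genes (0.0155%) and DESeq2 called 160. In HF it was -0.13 (SE 0.23, 95% interval -0.62 to 0.35, exact permutation p = 0.484), where edgeR called 0 of 13025 genes (0%), with 863 at an unadjusted p under 0.05, and DESeq2 called 26. None of the 5 tested RFI contrasts of ALAS1 passed. The permutation tests compared mean log2 CPM, where low minus high RFI was 0.088 in CH and -0.18 in HF for H1. That difference was -0.078 in CH for ZG, and -0.39 in CH and -0.22 in HF for H2. Adjusted over the 5 contrasts, the permutation p was 0.259 at least. The breed difference in the RFI effect was 0.30 for H1 (SE 0.30), where edgeR called 0 genes (0%), with 651 at an unadjusted p under 0.05, and DESeq2 called 3. For H2 it was -0.22 (SE 0.34), where edgeR called 0.00717% of all genes and DESeq2 called 1 gene.

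ALAS1 varied more between steers of a group than most genes of its level. Its biological coefficient of variation in edgeR was 0.311, against a median of 0.241 over all genes tested and of 0.213 over the 275 genes within 0.5 log2 of its mean CPM. Of those 275 genes, 57 had a higher value.

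The other genes of heme metabolism could be followed only where the study's list gave them a name, and that list holds genes the study called between RFI groups in these same libraries. Of the 9 genes of the heme synthesis list, ALAS1 alone was matched. Names were found for 2 of 14 genes of mitochondrial import and turnover (PGRMC1 and TSPO), 1 of 14 of heme breakdown and scavenging (HP), 1 of 28 of the cytochrome P450 system (CYP3A5), 1 of 15 known regulators of ALAS1 (NR1D1), 1 of 13 of the fasting response (IRS2), 3 of 18 of the body clock (NR1D1, NFIL3 and NOCT) and 0 of 7 other heme proteins. Of these 8 genes beside ALAS1, 1 was higher and 0 lower on grass than in H1 in CH, where 17.8% of all genes were called, and 3 were higher and 2 lower in HF, where 58% were. From H1 to H2, 5 were higher and 2 lower in CH, where 66.6% of all genes were called, and 4 higher and 2 lower in HF, where 61.9% were. From ZG to H2, edgeR called 0 in CH and 1 higher and 1 lower in HF, against 2.82% and 7.24% of all genes. With so few genes matched, these counts say nothing particular about heme metabolism.

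PGRMC1, a heme-binding membrane protein that associates with ferrochelatase, and CYP3A5, a drug-metabolising enzyme that carries heme, were both higher in ZG and H2 than in H1 in HF. On grass, PGRMC1 had a log2 fold change over H1 of 0.58 in HF (SE 0.09, edgeR adjusted p = 1.76e-07) and 0.40 in CH (SE 0.11, edgeR adjusted p = 0.0216). CYP3A5 had 0.78 in HF (SE 0.12, edgeR adjusted p = 1.32e-07) and 0.34 in CH (SE 0.15, edgeR adjusted p = 0.12). In H2 over H1, PGRMC1 had 0.47 in CH and 0.49 in HF, and CYP3A5 had 0.64 in CH and 0.45 in HF, all 4 called. Without TMM these log2 fold changes kept their sign but were smaller. PGRMC1 then had 0.32 in CH and 0.28 in HF for ZG, and 0.21 in CH and 0.29 in HF for H2. CYP3A5 then had 0.27 in CH and 0.46 in HF for ZG, and 0.37 in CH and 0.23 in HF for H2.

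TSPO, a porphyrin-binding protein of the outer mitochondrial membrane, moved the other way. Its log2 fold change over H1 was -1.22 in CH (SE 0.32, edgeR adjusted p = 0.000761) and -1.49 in HF (SE 0.37, edgeR adjusted p = 0.000748) for H2, and -0.74 in HF for ZG (SE 0.32, edgeR adjusted p = 0.0455). For ZG in CH the value was -1.03 (SE 0.46, edgeR adjusted p = 0.127) and was not called. TSPO was scarce, with diet medians in each breed between 1.76 and 4.79 CPM. IRS2, an insulin receptor substrate that rises in the fasted liver, was lower in H2 than in H1, by log2 fold changes of -1.99 in CH (SE 0.38, edgeR adjusted p = 8.51e-06) and -2.68 in HF (SE 0.47, edgeR adjusted p = 6.69e-06). On grass IRS2 was also lower than in H1 in HF, at -0.94 (SE 0.37, edgeR adjusted p = 0.0286). The CH value on grass was -0.90 (SE 0.51, edgeR adjusted p = 0.226) and was not called. IRS2 was scarce, with diet medians in each breed between 0.501 and 4.70 CPM. HP, the hemoglobin scavenger haptoglobin, was higher in H2 than in H1 in CH by 1.75 (SE 0.89, edgeR adjusted p = 0.0827), a call lost without TMM (adjusted p = 0.195), and its levels in CH on H2 ran from 26.4 to 26048 CPM.

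NR1D1, a nuclear receptor that binds heme and represses clock genes, did not pass the test between ZG and H1, with log2 fold changes of 0.20 in CH (SE 0.36) and -0.03 in HF (SE 0.27). In H2 over H1 it was higher by 0.71 in CH (SE 0.26, edgeR adjusted p = 0.0153), a call lost without TMM (adjusted p = 0.145), and by 0.77 in HF (SE 0.30, edgeR adjusted p = 0.0234). In HF it was higher in H2 than in ZG by 0.80 (SE 0.29, edgeR adjusted p = 0.0962), where ALAS1 was lower. NOCT, nocturnin, whose transcript is rhythmic in liver, was higher in ZG than in H1 in HF by 1.16 (SE 0.35, edgeR adjusted p = 0.00444) and in H2 by 1.14 (SE 0.37, edgeR adjusted p = 0.00826). In CH the NOCT values were 0.13 for ZG (SE 0.45) and 0.13 for H2 (SE 0.32), and neither passed. NFIL3, which represses clock-controlled genes at D-box elements, had no call between diets that held under both scalings. With TMM it was called in H2 over H1 in CH (0.28, SE 0.11, edgeR adjusted p = 0.0178) but not in HF (-0.06, SE 0.12). Without TMM it was called in HF (-0.27, edgeR adjusted p = 0.0509) but not in CH (0.0041, edgeR adjusted p = 0.978).

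Between steers of the same group, the gene that ran most opposite to ALAS1 was NFIL3. Likeness was measured as the Pearson correlation of log2 CPM with ALAS1 over the 90 libraries after the mean of each of the 12 groups had been subtracted, for the 13944 other genes that passed the filter, of which 327 had a name. The values are descriptions: the libraries share 14 steers, and the extremes were picked from all genes. The correlations had a median of 0.0079 and ran from -0.534 to 0.594, with 9 genes above 0.5 and 1 below -0.5. NFIL3 was the lowest of all by Pearson's r (-0.534) and by Spearman's rho (-0.520). The other 9 of the 5 highest and 5 lowest genes had no name in the list.

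The same libraries can be divided by diet and breed, which describes where the low value came from but is no independent check of it. Pearson's r of NFIL3 with ALAS1 was -0.524 within H1 (n = 36), -0.520 within ZG (n = 24) and -0.607 within H2 (n = 30). It was -0.686 in CH (n = 43) and -0.401 in HF (n = 47). Over the 6 combinations of breed and diet it ranged from -0.976 in CH on grass, with n = 6, to -0.293 in HF on grass, with n = 18. It was -0.514 without the 2 libraries farthest from the NFIL3 median, -0.505 with just 1 library from each steer, and -0.551 without TMM.

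The other 2 named body clock genes ran the same way as ALAS1 on the whole. NOCT had an r of 0.485 (rho 0.419) and was number 12 of the 13944 genes, and NR1D1 had an r of 0.332 (rho 0.327) and was number 142. NOCT had an r of 0.298 in H1, 0.614 in ZG and 0.620 in H2, but -0.079 in HF on H1. NR1D1 had an r of 0.252 in H1, 0.157 in ZG and 0.584 in H2, with 0.015 in HF on grass. The highest correlation of a named gene was that of SIK1, a kinase induced by cyclic AMP, at 0.495 (rho 0.454), which was 0.411 without the 2 libraries farthest from the SIK1 median. SIK1 was chosen after its value was seen. The remaining listed genes had weaker values, 0.192 for PGRMC1, 0.086 for IRS2, -0.063 for CYP3A5, -0.170 for TSPO and -0.179 for HP.

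**Figure D4:**
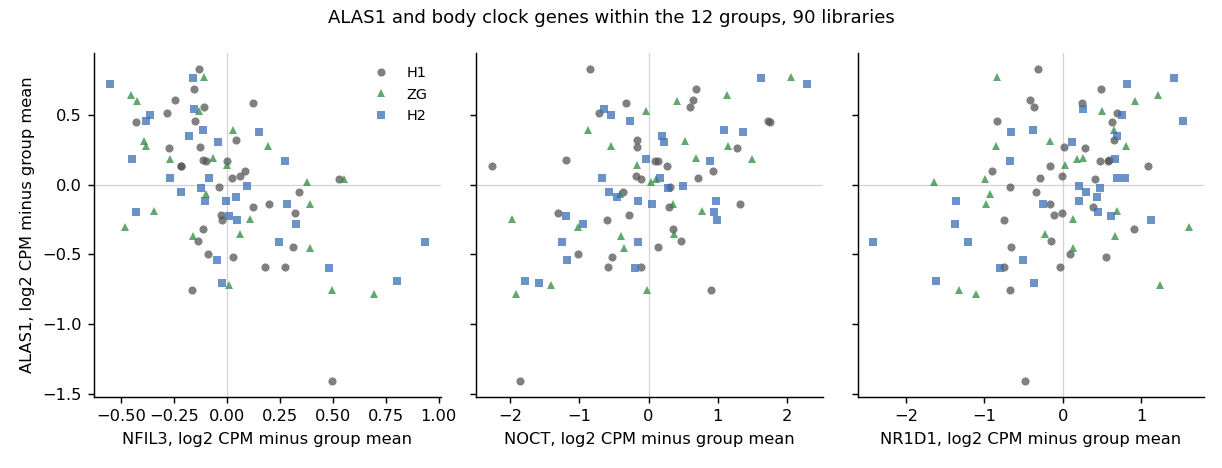
Log2 CPM of ALAS1 (vertical) against that of NFIL3, NOCT and NR1D1 (horizontal), each minus its group mean, in 90 libraries marked by diet. Pearson's r is -0.534 for NFIL3, 0.485 for NOCT and 0.332 for NR1D1. The 3 diets share a centre because each group mean was subtracted.

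The 12 group means include those of low and high RFI HF steers on grass, which carry the difference the gene was selected on. Correlations over these means are therefore descriptions that partly rest on that contrast. Over the 12 means, the 3 genes most like ALAS1 had correlations of 0.947, 0.946 and 0.941 and no name in the list. Of the named genes, DLD, dihydrolipoamide dehydrogenase, a subunit shared by the mitochondrial complexes that make acetyl-CoA and succinyl-CoA, had the highest, at 0.844, and was chosen after its value was seen. DLD had an r of just 0.058 within groups. NFIL3, the lowest gene within groups, had a correlation of -0.012 over the 12 group means, and PGRMC1 had 0.716. The named genes highest in likeness over group means and within groups were thus DLD and SIK1, whose own values over group means were 0.844 and -0.145.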

How the data were processed

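Liver mRNA (TruSeq stranded kit, single-end reads) was measured in 90 libraries. The authors trimmed reads with cutadapt, aligned them to UMD3.1 with STAR (2.5.3a in the submitters' processing notes), counted them per Ensembl gene and deposited raw counts without normalisation. Which strand column was counted is not given in the sources used here. The counts hold identifiers only: names came from the study's supplementary list and positions were not used here. ALAS1 and the gene lists were chosen with earlier results of these data known.

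Libraries were grouped by their labels and none was left out. Tests used edgeR 4.0.16 (TMM, filterByExpr, robust quasi-likelihood fits, Benjamini-Hochberg adjustment) in R 4.3.3, one fit of 12 groups for diet and breed and one fit per breed and diet for RFI. Standard errors were taken from the F statistics. Group means and SDs in CPM were taken on the linear scale. Permutation tests, steps between ordered groups and correlations used log2 CPM. The alternatives were DESeq2 1.42.0, its size factors, 2 other count filters, limma-voom 3.58.1 with quality weights or a steer block, leaving out each steer of groups with 5 or fewer, and, added after the data were seen, no TMM, each RFI group alone, within-steer changes and subsets of libraries for the correlations. Fits were tested on simulated data.

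Pairing came from the steer numbers in the labels. Same-steer libraries, 18 pairs, had a median correlation of 0.248 in their deviations over 13945 genes, from -0.424 to 0.501, with 14 over 0.1. The number 1797 occurs under both breeds and was treated as 2 steers. Genes were named by a fixed rule: ALAS1, listed regulators, at most 4 called genes of each other list, and the genes with the highest and lowest likeness to ALAS1. SIK1, DLD and listed genes that were not called fall outside it.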

Additional observations from a re-analysis of the deposited data

How the results depend on the processing

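Of 246 values recomputed with a test under other settings, 220 kept their direction and their side of the threshold, 17 lost the call and 9 changed sign. The contrast the gene was selected on is not among them. The HF comparisons of grass in low or high RFI steers alone are among them, and these carry the selected difference. Of these, H2 versus ZG in low RFI HF steers was counted as a lost call and the others as kept. Most of the 220 kept values belong to breed, interaction and RFI comparisons in which the main fits did not call ALAS1. edgeR called few or no genes there, so keeping the same side of the threshold says little for those comparisons. The higher level of ALAS1 on grass than in H1 kept its call in every alternative with a test, at log2 fold changes from 0.90 to 1.29 in CH (edgeR, DESeq2 or limma adjusted p of 0.0347 at most) and from 1.06 to 1.40 in HF, the splits by RFI aside, and so did H2 over H1 in HF, from 0.66 to 0.90.

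H2 versus ZG in CH was no longer called without a filter (-0.65), with quality weights (-0.39), in limma-voom with the steer as replicate block (-0.61) or without the block (-0.63), and in low (-0.78) or high RFI steers alone (-0.54). Beside limma-voom without a block, the block changed no call. In low RFI steers alone, H2 versus H1 in CH was 0.20 and H2 versus ZG in HF was -0.13. Without TMM, H2 versus H1 in CH was 0.22, H2 versus ZG in HF was -0.41, CH versus HF on grass was 0.088 and the breed difference in ZG versus H1 was 0.0017. With quality weights, the breed difference in H2 versus ZG was 0.17. The same setting gave -0.50 (SE 0.26) for the breed difference in ZG versus H1 and -0.35 (SE 0.22) for CH versus HF on grass, neither called. The cause was not tested.

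With single steers left out, the range was -0.81 to -0.49 for H2 versus ZG in CH, -0.63 to -0.44 for H2 versus ZG in HF, -0.24 to 0.074 for CH versus HF on grass, -0.29 to 0.020 for the breed difference in H2 versus ZG, -0.37 to 0.0051 for the breed difference in the RFI effect in H2, and -0.45 to 0.18 for RFI in CH on grass. It was -0.38 to -0.01 for RFI in HF in H2, -0.29 to -0.11 for CH versus HF in H2, -0.37 to -0.06 for the breed difference in ZG versus H1 and -0.42 to -0.24 for that in H2 versus H1. The breed difference in the RFI effect changed sign without steer 2071, CH versus HF on grass without steer 307 (0.074) or 357 (0.022), and the breed difference in H2 versus ZG without steer 1816. Groups of 3 CH steers on grass limit every comparison that uses them.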
